A study of Mus musculus with 4 samples.

Results

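Cytochrome P450s, UDP-glucuronosyltransferases (UGTs) and glutathione S-transferases (GSTs) are the main enzymes with which a hepatocyte modifies drugs, steroids, bile acids and reactive lipids. P450s are haem enzymes of the endoplasmic reticulum and mitochondria that insert oxygen into a substrate. UGTs and GSTs then attach glucuronic acid or glutathione, which makes the product more water soluble and ready for export. The liver holds the widest set of these genes, whereas fibroblasts carry a narrower one.

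The genes were chosen by name. Symbols of P450 genes (the Cyp26 retinoic acid hydroxylases left out), Ugt1a and Ugt2 genes, and alpha, kappa, mu, omega, pi, theta and zeta class GSTs matched 132 of the 55397 genes listed. Of these, 49 averaged 10 or more normalized counts across the 4 libraries, namely 26 of 91 P450s, 5 of 19 UGTs and 18 of 22 GSTs, and are described in the comparison of groups. They hold 0.124% of all reads on genes.

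The samples were primary mouse embryonic fibroblasts (MEFs) of C57BL/6J embryos at day 13.5 with floxed Prox1 alleles, genotype Prox1(fl/fl). All were transduced with lentiviruses encoding the 4-in-1 hepatocyte reprogramming factors and, per the study's methods, rtTA, which switches on the factors under doxycycline, and were harvested for bulk RNA sequencing on day 14. In the libraries labelled Prox1 KO (n = 2) a further lentivirus carried Cre recombinase with GFP, and in the controls (n = 2) it carried ΔCre, a non-functional form. The controls thus have the same floxed alleles, factors and GFP tag but no active recombinase, and loss of Prox1 and the activity of Cre itself cannot be told apart. The whole culture was harvested, so cells that did not reprogramme are part of each sample. The labels do not say whether the libraries of a group came from separate cultures, and the p-values measure only the spread between these libraries. With so few libraries, the test estimates the spread of each gene in part from other genes of similar level. Standard errors and p-values are thus not those of the gene alone.

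The 4 libraries held 42469031 to 48524008 reads on genes. Values are normalized counts, which are reads on a gene corrected for the size of the library. A log2 fold change is the level in the libraries labelled Prox1 KO over that in the controls, fitted by limma within pairs of libraries with the same replicate number, and a gene is called where its Benjamini-Hochberg adjusted p over all tested genes is under 0.05. Prox1, the targeted gene, had 72.7 and 61.6 normalized counts in libraries labelled Prox1 KO against 60.6 and 25.5 in the controls of replicates 1 and 2. It was not lower where its loss is labelled, with a log2 fold change of 0.75 (standard error, SE, 0.27, limma adjusted p = 0.0936), and all directions below rest on the labels. The count covers the whole gene, including exons that Cre does not remove, and therefore does not check the deletion. Of the hepatocyte markers, 9 of 11 reached a mean of 10 and 7 of those were called lower in libraries labelled Prox1 KO, all 7 also by edgeR and 4 by DESeq2, both run on reads recovered from the normalized counts and with the replicate number as a block. Alb (albumin) and Apoa2 were tested and not called. Alb had 3838 and 4766 normalized counts in libraries labelled Prox1 KO against 4197 and 5021 in the controls. Its log2 fold change was -0.10 (limma adjusted p = 0.158), and that of Apoa2 was -0.17. The summed level of all 11 was 19604 and 21563 normalized counts in libraries labelled Prox1 KO against 27013 and 29625 in the controls. None of the hepatocyte markers was at 0 in all libraries. However, Ahsg, a plasma glycoprotein, and Tat, an enzyme of adult hepatocytes, had means of 3.75 and 1.02. In bulk samples, fewer cells of a type and less RNA per cell cannot be told apart.

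Several P450s and UGTs typical of adult liver had few or no reads in both groups. Those named here were picked for their low values, and other enzymes of liver, among them Gstm1, Gsta3, Cyp7b1, Cyp27a1, Cyp2c70 and Cyp2d26, were expressed. Of the 83 genes with means below 10, 38 had no read in any library, 21 had 1 to 5 reads in all 4 libraries together, and 24 had more than 5. All 83 together had 385 reads, against 222881 reads for the 49 tested genes. Cyp7a1, the rate-limiting enzyme of bile acid synthesis, Cyp1a2, a hepatocyte P450 of caffeine and arylamine metabolism, and Cyp3a25, a member of the main drug-oxidising subfamily, had 0 reads in every library. A count of 0 allows up to 3 reads, which corresponds to 2.75 to 3.19 normalized counts per library, and this limit covers counting error only. Cyp8b1, the 12-alpha-hydroxylase that sets cholic acid output, had 1 read in all. Cyp2e1, which oxidises ethanol and acetaminophen, had 4 reads. Cyp3a11, a major drug-metabolising P450 of adult mouse liver, had 6, of which 5 were in 1 library labelled Prox1 KO. Cyp2c29, a phenobarbital-responsive liver P450, had 16 reads. Ugt1a1, the enzyme that conjugates bilirubin, had 18 reads, and Ugt2b1, a hepatocyte steroid UGT, had 3. A difference between the groups was not detectable at this depth for these genes. Ugt1a1 shares exons with other Ugt1a genes, so its reads may not all be counted to it. Sequence shared with other genes was measured only for the 49 tested genes.

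The limit of 10 normalized counts lay between Cyp4f14, a leukotriene hydroxylase, at a mean of 13.2 and Gstp2 at 8.11. Just above it were also Gsta2, at 14.0, and Cyp2ab1, at 15.6. Just below it were Cyp1a1, the classical target of the aryl hydrocarbon receptor, at 5.94, and Cyp11b1, the steroid 11-beta-hydroxylase of the adrenal cortex, at 5.58. Cyp2ab1 was the 1 gene that passed through 1 group alone, since its controls averaged below the limit.

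Among the genes that were expressed, the GSTs held most of the signal. Summed over the 18 GSTs, the level was 37528 and 37122 normalized counts in libraries labelled Prox1 KO against 36654 and 36197 in the controls. Gsto1 held most of this sum, with 20908 and 19570 against 18440 and 17303. Of the 18 GSTs, 13 had a negative log2 fold change and 5 a positive one, with a median of -0.10. For the 26 P450s the sum was 16040 and 17664 against 16045 and 18076, and for the 5 UGTs 1390 and 1866 against 1683 and 1931. Per kilobase of the longest transcript, the mean level was highest for Gsto1 at 16121 normalized counts per kb, followed by Gstm1 at 4806, Gstp1 at 3842, Gstm2 at 1713, Gstm5 at 1358 and Gsta4 at 1250. The highest P450 on this scale, Cyp1b1, was seventh at 1130 normalized counts per kb. Gsto1, Gstm1 and Cyp1b1, the highest genes in normalized counts, held 55.9% of all reads of the 49 genes. In all, 14 genes had means over 1000 normalized counts and 13 had means under 100.

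**Figure D1:**
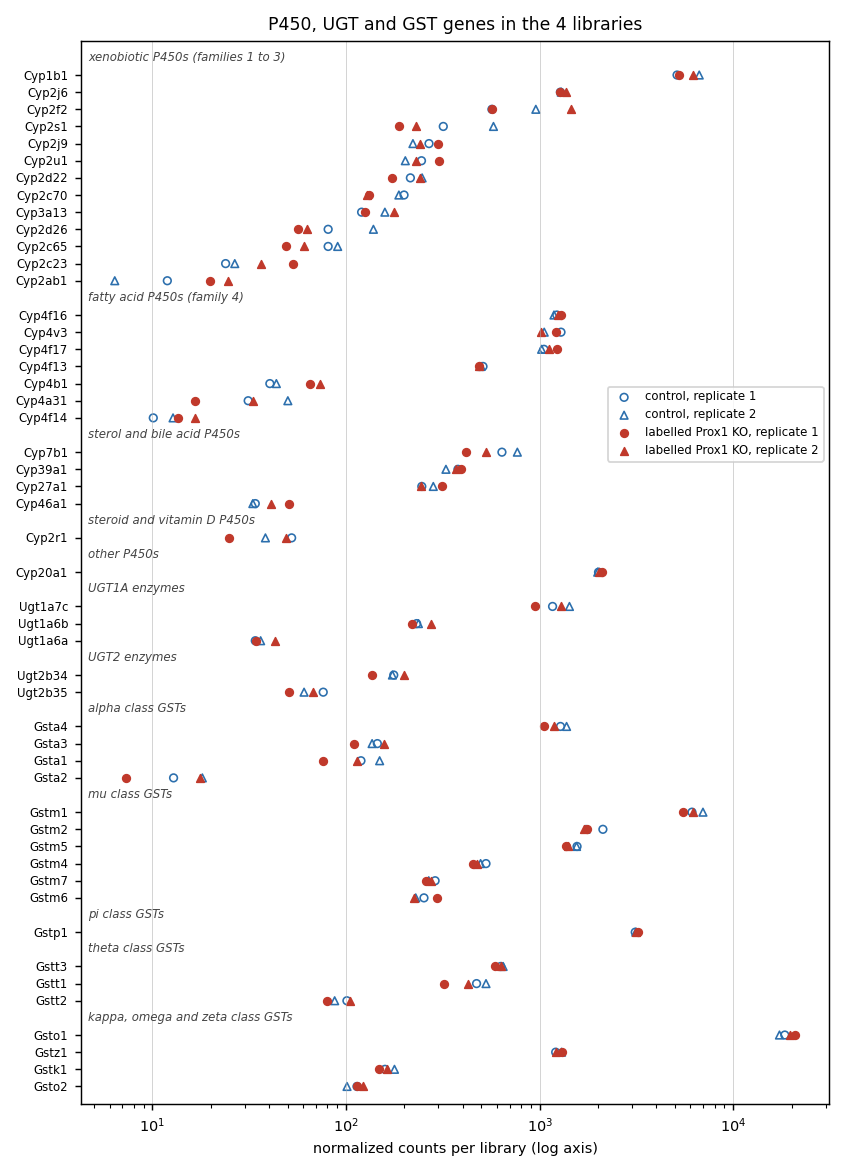
Normalized counts on a log axis of the 49 P450, UGT and GST genes in each of the 4 libraries, grouped by enzyme class, with controls as open and libraries labelled Prox1 KO as filled symbols. Levels run from a mean of 13.2 for Cyp4f14 to 19055 for Gsto1, and the log2 fold change was within 0.25 of 0 for 32 of the 49 genes.

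Between the groups, 9 of the 49 genes passed an adjusted p of 0.05 in limma (18.4%), against 11.4% of all 15809 genes tested. Lower in the libraries labelled Prox1 KO were 8 of the 49, against 6.29% of all genes, and higher was 1, Gsto1, against 5.09% of all genes. The 8 that fell were the P450s Cyp2s1, Cyp7b1, Cyp2c70 and Cyp2d26, the GSTs Gstt1, Gsta4 and Gstm1, and the UGT Ugt1a7c. The log2 fold change exceeded 1 in size for 1 of the 9 and 0.5 for 4, and was under 0.25 for 3. Hepatocyte, fibroblast, biliary and intestinal epithelium markers moved in the direction of the 8 falls. Their median log2 fold changes were -0.77, -0.43, -0.18 and -0.96 over the 9, 7, 6 and 3 tested. The medians of the adipocyte, muscle, macrophage, endothelial and steroidogenic markers were positive. The part of any of these cell types in the 8 falls was not tested. The other 40 genes did not pass. An unadjusted p under 0.05 was found for 19 of the 49, against 23.7% of all genes tested. Without the replicate number as a block, limma called 0 of the 49 and 0 of all genes, and 13 of the 49 had an unadjusted p under 0.05, against 11.3% of all genes. DESeq2 on the reads recovered from the normalized counts, with the block, called 3 (Cyp2s1, Cyp7b1 and Gsto1) of the 40 to which it gave an adjusted p, against 3.83% of all genes with one, and edgeR called 10 of the 49, all 9 and Cyp2f2, against 11.4% of all genes. Over the 49 genes the median log2 fold change was -0.05 against -0.00 over all tested genes, and the median size of the change was 0.16 against 0.10.

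The direction was the same in both replicate pairs for 36 of the 49 genes (73.5%), against 65.8% of all tested genes. Of these, 20 were lower and 16 higher in both pairs. The libraries of the groups did not overlap for 23 genes, 46.9% of the 49, against 44.4% of all tested genes. Across the 49 genes the log2 fold changes of the pairs had a Pearson correlation of 0.617 and a Spearman correlation of 0.554. Across all tested genes these were 0.364 and 0.383. The points are genes of the same 4 libraries and are not independent replicates.

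**Figure D2:**
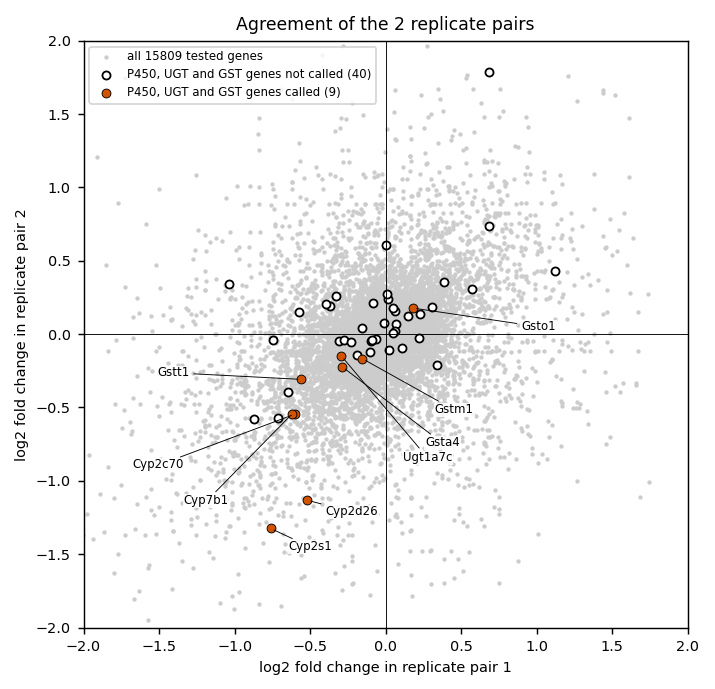
Log2 fold change (libraries labelled Prox1 KO over control) in replicate pair 1 against pair 2 for all 15809 tested genes in grey, the 40 uncalled P450, UGT and GST genes as open circles and the 9 called ones in orange. All 9 called genes lie on the same side of 0 in both pairs, and 58 other genes lie outside the plotted range of 2 in either direction.

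Cyp2s1, an extrahepatic epithelial P450 of retinoid and xenobiotic metabolism, showed the largest called change. It had 187 and 230 normalized counts in libraries labelled Prox1 KO against 318 and 577 in the controls of replicates 1 and 2. The groups did not overlap, and the control of replicate 2 was the highest library. The log2 fold change was -1.04 (SE 0.13, limma adjusted p = 9.43e-05), with -0.76 in pair 1 and -1.32 in pair 2. Cyp2s1 (ENSMUSG00000040703) lies on chromosome 7 of GRCm38 from 25802475 to 25816913 on the minus strand, and its exons overlap those of the antisense gene Gm26707. The libraries were made with a strand-marking (dUTP) protocol, but the strand setting used in counting is not given in the sources used here.

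Cyp7b1, the oxysterol 7-alpha-hydroxylase of the alternative pathway of bile acid synthesis, had 415 and 525 normalized counts in libraries labelled Prox1 KO against 638 and 766 in the controls. Both libraries labelled Prox1 KO were below both controls. This gave a log2 fold change of -0.58 (SE 0.08, limma adjusted p = 0.000267). Cyp7b1 (ENSMUSG00000039519) lies on chromosome 3 from 18071950 to 18243338 on the minus strand. The pairs differed little, at -0.62 and -0.55.

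Cyp2c70 hydroxylates bile acids in mouse liver and produces the muricholic acids. It had 131 and 128 normalized counts in libraries labelled Prox1 KO against 199 and 187 in the controls, so that replicates lay close together and the groups apart. Its log2 fold change was -0.57 (SE 0.15, limma adjusted p = 0.0185). Cyp2c70 (ENSMUSG00000060613) lies on chromosome 19 from 40153353 to 40187333 on the minus strand.

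Cyp2d26 (ENSMUSG00000022445; chromosome 15, 82790101 to 82794294, minus strand) is a liver member of the Cyp2d subfamily. It had 56.1 and 62.6 normalized counts in libraries labelled Prox1 KO against 80.8 and 138 in the controls, with the control of replicate 2 standing above the other 3 libraries. On the log2 scale the fold change was -0.83 (SE 0.21, limma adjusted p = 0.0203), and was -0.52 in pair 1 and -1.13 in pair 2. With quantile normalization Cyp2c70 and Cyp2d26 did not pass, with adjusted p of 0.0504 and 0.0520 in limma.

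The other xenobiotic P450s of families 1 to 3 were higher or lower by amounts that did not pass. Of the 13 tested, 3 fell, 0 rose and the median log2 fold change was 0.03. Of all tested genes, 6.29% were called lower and 5.09% higher. Cyp1b1, which hydroxylates estradiol and polycyclic aromatic hydrocarbons and is typical of fibroblasts, had 5209 and 6174 normalized counts in libraries labelled Prox1 KO against 5120 and 6666 in the controls. Replicate 2 was higher than replicate 1 in both groups, and the log2 fold change was -0.04 (95% interval -0.14 to 0.05). Cyp2j6, an arachidonic acid epoxygenase, had a log2 fold change of 0.03 with all libraries between 1271 and 1361 normalized counts. Cyp2j9, Cyp2u1, Cyp2d22, Cyp3a13 and Cyp2c23 had log2 fold changes between -0.18 (Cyp2d22) and 0.77 (Cyp2c23), and of these only the libraries of Cyp2c23 did not overlap between the groups.

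Cyp2f2, a P450 of airway club cells and liver that activates naphthalene, differed between the pairs. Its normalized counts were 566 and 1457 in libraries labelled Prox1 KO against 566 and 955 in the controls. Both libraries of replicate 1 were at the same level, and only replicate 2 showed a difference. The log2 fold change was 0.30 (limma adjusted p = 0.0767), -0.00 in pair 1 and 0.61 in pair 2. edgeR on the recovered reads called it, with an adjusted p of 0.0404, and limma did so when all genes above 0 were tested, with an adjusted p of 0.000995. Its exons overlap those of the antisense gene Gm15883.

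Cyp2c65, an intestinal P450, had a log2 fold change of -0.64 (limma adjusted p = 0.0664), and Cyp2ab1 one of 1.23 (limma adjusted p = 0.0850). Their levels were low, with 48.8 and 60.6 normalized counts of Cyp2c65 in libraries labelled Prox1 KO against 80.8 and 90.5 in the controls, and 19.7 and 24.4 of Cyp2ab1 against 11.9 and 6.39. Neither passed the test. Their groups did not overlap, as was the case for 44.4% of all tested genes. Cyp2ab1 passed the limit only through the libraries labelled Prox1 KO, where it was higher.

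None of the 7 family 4 P450s, which hydroxylate fatty acids and eicosanoids at their far end, passed. The highest were Cyp4f16 at a mean of 1234, Cyp4v3 at 1142 and Cyp4f17 at 1108 normalized counts, with log2 fold changes of 0.07, -0.07 and 0.18. Cyp4f17 passed with the GC and length correction (limma adjusted p = 0.0364 against 0.0787 without it). Cyp4f13, Cyp4a31 and Cyp4f14 had -0.05, -0.72 (limma adjusted p = 0.153) and 0.37. Summed, the family had 4306 and 3993 normalized counts in libraries labelled Prox1 KO against 4157 and 3867 in the controls. Cyp4b1, which oxidises lauric acid and activates furans, had the smallest adjusted p of the family without that correction. It had 65.5 and 73.3 normalized counts in libraries labelled Prox1 KO against 40.4 and 43.6 in the controls, a log2 fold change of 0.71 (limma adjusted p = 0.0663).

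Cyp7b1 was the 1 sterol and bile acid P450 of 4 that changed. Cyp39a1, which hydroxylates 24-hydroxycholesterol, had a log2 fold change of 0.12, Cyp27a1, the mitochondrial sterol 27-hydroxylase, one of 0.06, and Cyp46a1, the cholesterol 24-hydroxylase, one of 0.44 (limma adjusted p = 0.36). Cyp27a1 went up in pair 1 (0.34) and down in pair 2 (-0.21). Of the steroid and vitamin D P450s, only Cyp2r1, the vitamin D 25-hydroxylase, was above the limit, with a log2 fold change of -0.35 that also changed sign between pairs (-1.04 and 0.34). Cyp20a1, an orphan P450, stayed between 1993 and 2097 normalized counts in all 4 libraries.

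**Figure D3:**
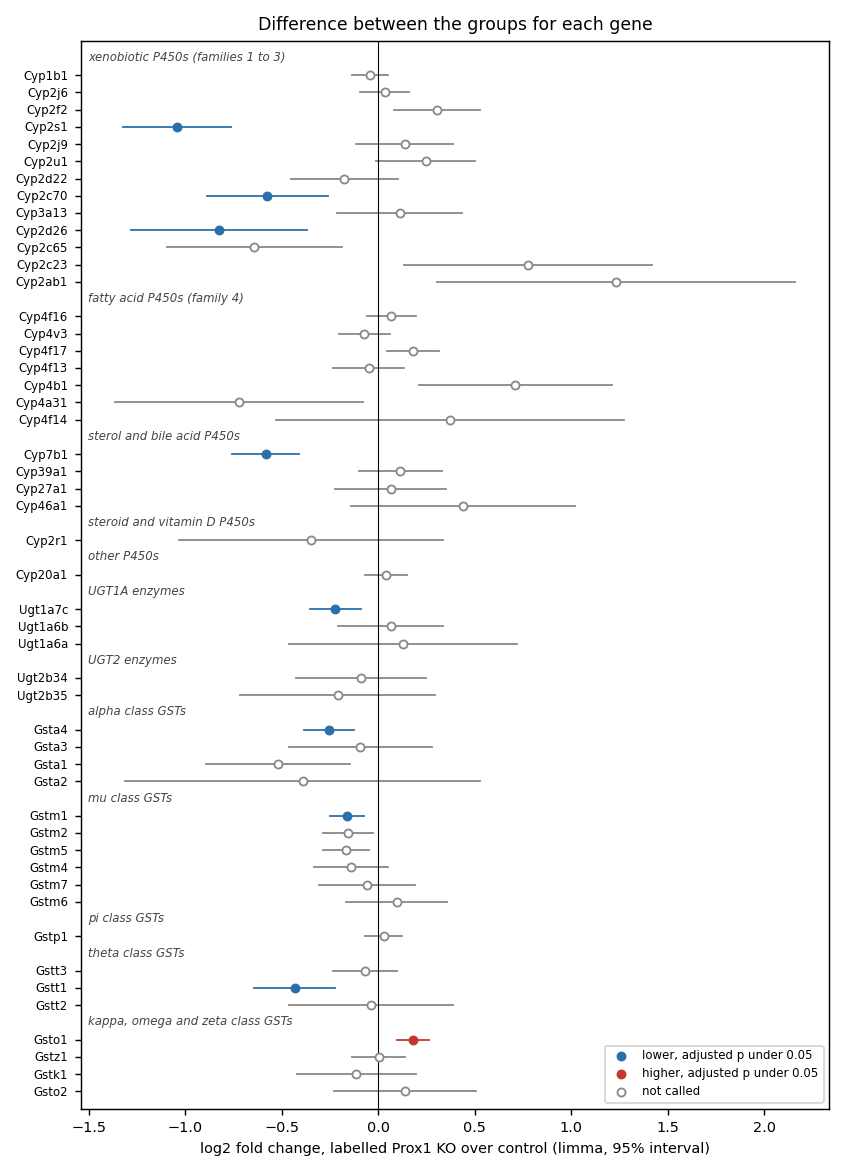
Log2 fold change of each of the 49 genes (libraries labelled Prox1 KO over control) with its 95% interval from limma, grouped by enzyme class, and with the genes that passed an adjusted p of 0.05 in colour. The intervals of genes with low counts, such as Cyp2ab1 and Gsta2, are several times wider than those of Gsto1 or Gstm1.

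Gsto1, an omega class transferase that reduces dehydroascorbate and methylated arsenic, was the most abundant of the 49 genes and the 1 that rose. It had 20908 and 19570 normalized counts in libraries labelled Prox1 KO against 18440 and 17303 in the controls. The groups did not overlap, and the rise was nearly the same in both pairs, 0.18 each on the log2 scale. The fitted log2 fold change was 0.18 (SE 0.04, limma adjusted p = 0.00668), the smallest but 1 of the called changes. Gsto1 (ENSMUSG00000025068) lies on chromosome 19 from 47854970 to 47864790 on the plus strand, and no 100-base window along its longest transcript occurs in another gene. The other kappa, omega and zeta class genes did not pass, with log2 fold changes of 0.00 for Gstz1, an isomerase of tyrosine breakdown, -0.11 for Gstk1, a mitochondrial and peroxisomal transferase, and 0.14 for Gsto2.

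Gstt1, a theta class enzyme that acts on small halogenated compounds, had 320 and 426 normalized counts in libraries labelled Prox1 KO against 472 and 528 in the controls. Its log2 fold change was -0.43 (SE 0.10, limma adjusted p = 0.00884). Gstt1 (ENSMUSG00000001663) lies on chromosome 10 from 75783813 to 75798584 on the minus strand. The other tested genes of the class were closer to 0, with -0.07 for Gstt3 and -0.04 for Gstt2. Gstt2 went in opposite directions in the pairs (-0.33 and 0.26).

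Gsta4, an alpha class enzyme that conjugates 4-hydroxynonenal from lipid peroxidation, had 1049 and 1179 normalized counts in libraries labelled Prox1 KO against 1280 and 1376 in the controls. Its log2 fold change was -0.26 (SE 0.06, limma adjusted p = 0.0119). Gsta4 (ENSMUSG00000032348) lies on chromosome 9 from 78182774 to 78209349 on the plus strand. All 4 alpha class genes had a negative fold change, but only Gsta4 passed. Gsta1 had -0.52 (limma adjusted p = 0.0699, or 0.0440 when all genes above 0 were tested), and 81.8% of the 100-base windows along its longest transcript were found in other genes too, most of them in Gm3776, so its reads could be shared. Gsta3, an abundant liver transferase, had -0.09 and differed in direction between pairs (-0.39 and 0.21).

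Gstm1, the main mu class enzyme of rodent liver, had 5495 and 6202 normalized counts in libraries labelled Prox1 KO against 6113 and 6967 in the controls. The groups overlapped, since replicate 2 was higher in both, and the difference appeared within pairs, at -0.15 and -0.17. The log2 fold change was -0.16 (SE 0.04, limma adjusted p = 0.0181). Gstm1 (ENSMUSG00000058135) lies on chromosome 3 from 108012255 to 108017973 on the minus strand. Of the 6 mu class genes 5 had a negative fold change and 1 passed. Gstm2 had -0.16 (limma adjusted p = 0.115; -0.28 in pair 1 and -0.04 in pair 2) and Gstm5 -0.17 (limma adjusted p = 0.0737). Gstm4, Gstm7 and Gstm6 had -0.14, -0.06 and 0.10. Summed over the class, the level was 9615 and 10271 normalized counts in libraries labelled Prox1 KO against 10860 and 11241 in the controls.

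Gstp1, the pi class enzyme found in most dividing and fetal cells, stayed between 3114 and 3213 normalized counts in all libraries, a log2 fold change of 0.03 (95% interval -0.07 to 0.12). Of its windows 52.8% also occur in other genes, mainly Gstp2, which had 32 reads in all.

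Ugt1a7c accounts for most of the UGT signal. The Ugt1a genes share their last exons and differ in the first, which gives each enzyme its substrates, and 68.8% of the windows of Ugt1a7c also occur in other Ugt1a genes. Ugt1a7c (ENSMUSG00000090124) lies on chromosome 1 from 88095062 to 88220002 on the plus strand. Reads from the shared exons can belong to any of them. Its exons and those of Ugt1a6a and Ugt1a6b also overlap the antisense gene Gm20528, and 8 of the 49 genes overlap antisense exons in this way. Ugt1a7c had 951 and 1283 normalized counts in libraries labelled Prox1 KO against 1165 and 1424 in the controls, and the groups overlapped. The fitted log2 fold change was -0.22 (SE 0.06, limma adjusted p = 0.0332), and with quantile normalization it did not pass (adjusted p = 0.0516 in limma). Ugt1a6b and Ugt1a6a had log2 fold changes of 0.06 and 0.13. The UGT2 enzymes, which conjugate steroids and bile acids, were represented by Ugt2b34 and Ugt2b35, with -0.09 and -0.21. Both went down in pair 1 and up in pair 2.

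**Figure D4:**
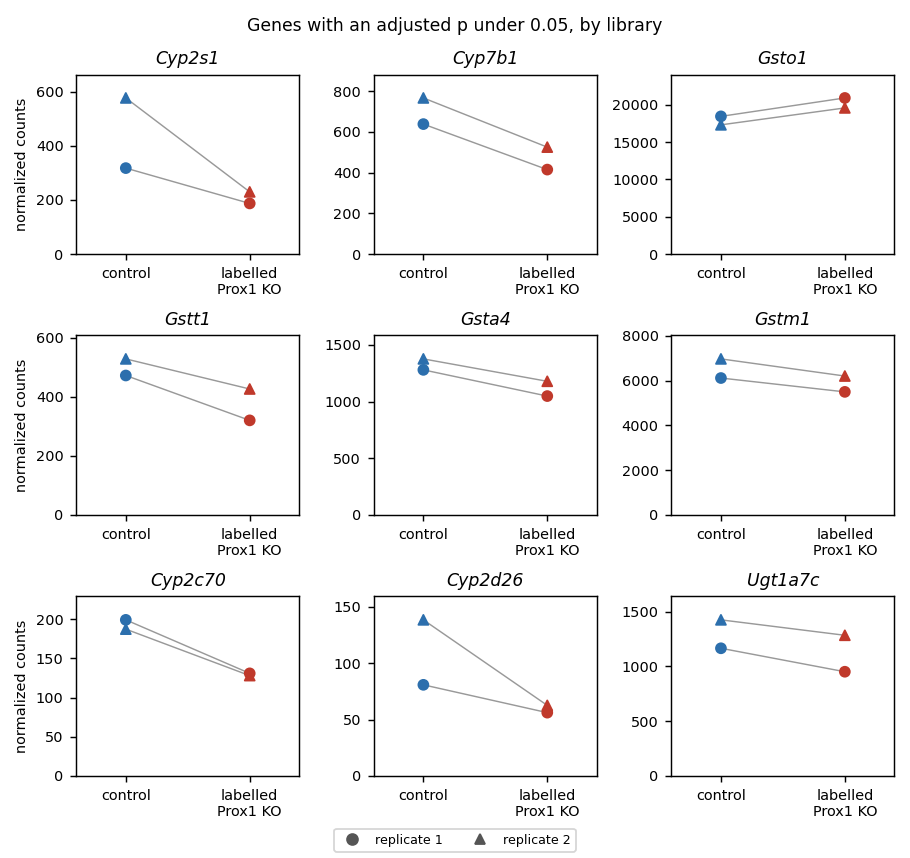
Normalized counts of the 9 genes with an adjusted p under 0.05, by library, with lines joining libraries of the same replicate number and each axis starting at 0. Every line slopes down except those of Gsto1, and for Gstm1 and Ugt1a7c the groups overlap while both lines still fall.

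To show the sequence in front of genes that changed, the 250 bases before the transcript start were taken from RefSeq (GRCm38.p6), which has an entry for 39 of the 49 genes and 7 of the 9 called genes. All 250 bases were searched, but stretches inside an annotated gene model are not printed, so a printed sequence can end before the RefSeq start. The windows were searched on both strands for 4 short motifs, TGACNNNGC (the core of the antioxidant response element bound by NRF2), GCGTG (the core of the element bound by the aryl hydrocarbon receptor), GTTAAT (an HNF1 half-site) and CAAAGTCCA (an HNF4 site), and none of the matches in called genes overlaps another. The genes shown are those that fell and hold a match, and Gsto1, the gene that rose and holds none. Cyp2s1, Gstt1 and Ugt1a7c also fell and have an entry, but they hold no match and are not shown. Capitals mark the matches, and each sequence runs 5′ to 3′ on the strand of its gene.
Cyp2c70 (chr19:40187334-40187536, minus strand): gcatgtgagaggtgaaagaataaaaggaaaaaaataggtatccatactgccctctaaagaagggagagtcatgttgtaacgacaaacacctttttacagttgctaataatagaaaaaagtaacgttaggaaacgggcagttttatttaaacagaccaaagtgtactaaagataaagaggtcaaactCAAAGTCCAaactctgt
Cyp2d26 (chr15:82794295-82794495, minus strand): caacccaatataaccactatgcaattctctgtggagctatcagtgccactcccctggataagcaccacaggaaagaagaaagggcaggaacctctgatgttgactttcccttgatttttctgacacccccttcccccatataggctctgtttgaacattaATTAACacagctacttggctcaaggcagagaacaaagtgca
Gstm1 (chr3:108017974-108018223, minus strand): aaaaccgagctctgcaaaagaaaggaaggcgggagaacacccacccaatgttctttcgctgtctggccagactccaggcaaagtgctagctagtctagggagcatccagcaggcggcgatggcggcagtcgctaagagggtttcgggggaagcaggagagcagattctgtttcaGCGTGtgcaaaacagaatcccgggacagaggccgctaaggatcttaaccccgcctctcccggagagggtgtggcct
Gsto1 (chr19:47854723-47854969, plus strand): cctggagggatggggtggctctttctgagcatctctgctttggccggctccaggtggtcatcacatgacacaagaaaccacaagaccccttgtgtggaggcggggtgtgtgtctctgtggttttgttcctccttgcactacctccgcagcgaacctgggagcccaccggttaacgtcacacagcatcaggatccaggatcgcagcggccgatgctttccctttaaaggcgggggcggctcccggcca

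The match in Cyp2c70 lies 64 to 56 bases before the RefSeq start, that in Cyp2d26 (the HNF1 half-site on the opposite strand) 90 to 85 bases before it, and that in Gstm1 76 to 72 bases before the first of its 2 RefSeq starts. Over all 32851 promoter entries of the same length, 10.2% hold TGACNNNGC, 28.2% GCGTG, 6.43% GTTAAT and 0.384% CAAAGTCCA. Of the 50 entries of the P450, UGT and GST genes, 4 hold TGACNNNGC, 13 GCGTG, 4 GTTAAT and 2 CAAAGTCCA. A match in these windows is a description of the letters, and no binding was measured.

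For comparison with the gene lists below, 5.09% of all tested genes were called higher and 6.29% lower. P450s depend on electron donors. Of 6 tested redox partners, 1 rose and 0 fell. It was Cyb5r3, cytochrome b5 reductase, with 45694 and 43422 normalized counts in libraries labelled Prox1 KO against 39954 and 39090 in the controls, a log2 fold change of 0.17 (limma adjusted p = 0.0118). Por, which passes electrons to every microsomal P450, was chosen after its value was seen and had 0.15 (limma adjusted p = 0.0502), with 0.26 in pair 1 and 0.05 in pair 2. Cyb5r3 was also called by edgeR and by DESeq2 with the block.

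Of 13 tested xenobiotic receptors and regulators, 3 rose and 0 fell, with a median log2 fold change of -0.01. Vdr, the vitamin D receptor, rose from 701 and 695 normalized counts in the controls to 875 and 935 in the libraries labelled Prox1 KO, a log2 fold change of 0.37 (limma adjusted p = 0.00306). Nr3c1, the glucocorticoid receptor, had 0.20 and Ahrr, the repressor of the aryl hydrocarbon receptor, 0.35. All 3 were called by edgeR and 0 by DESeq2 with the block. Levels differed widely within the list. Rxra, the shared partner of many nuclear receptors, had 7252 to 7418 normalized counts and Ahr, the aryl hydrocarbon receptor, 1349 to 1646, whereas Nr1i2 (PXR) had 2.75 to 8.52 normalized counts, Nr1i3 (CAR) was at 0 in 3 of the 4 libraries and 2.08 in the other, and Nr0b2 (SHP) and Nr5a2 (LRH-1) were at 0 in all 4.

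Of 15 NRF2 target genes, a list that leaves out the GSTs, 3 rose and 0 fell, with a median log2 fold change of 0.04. They were Gclc, the catalytic subunit of glutathione synthesis, which went from 10010 and 9979 normalized counts in the controls to 12859 and 12498 (log2 fold change 0.34, limma adjusted p = 3.86e-05), Nqo1, a quinone reductase (0.34), and Txnrd1, thioredoxin reductase (0.13). edgeR called Gclc and Nqo1, and DESeq2 with the block Gclc alone. The list of 4 AHR target genes leaves out the P450s, Cyp1a1 among them. Of the 4 genes 2 rose, Nqo1 and Ahrr, which are also in the preceding lists, and 1 fell. That was Aldh3a1, an aldehyde dehydrogenase, with 49.9 and 97.7 normalized counts in libraries labelled Prox1 KO against 161 and 345 in the controls, a log2 fold change of -1.74 (limma adjusted p = 5.02e-06). All 3 were called by edgeR, and of these DESeq2 with the block called Aldh3a1.

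Genes of glutathione synthesis and use moved both ways, with 3 of 23 higher and 4 lower. Ggt1, the cell surface gamma-glutamyltransferase that starts the breakdown of glutathione and its conjugates, had 17.7 and 29.3 normalized counts in libraries labelled Prox1 KO against 94.6 and 89.4 in the controls. This log2 fold change of -1.97 (limma adjusted p = 0.000232) was larger in size than that of any of the 49 P450, UGT and GST genes. Gpx7, a peroxidase of the endoplasmic reticulum, had -0.37 and Gpx3, the secreted peroxidase, 0.23. All 7 called genes passed in edgeR and 3 in DESeq2 with the block (Gclc, Gpx7 and Gpx3), which gave Ggt1 no adjusted p.

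Among other conjugating and oxidising enzymes 6 of 36 rose and 4 fell. Ces2e, a carboxylesterase, had a log2 fold change of 0.50 and Sult4a1, a sulfotransferase best known from brain, 0.58. Fmo1, a flavin monooxygenase, had -0.60 and Sult5a1 -0.99. Fmo1 also differed between replicates within each group, with 373 and 958 normalized counts in libraries labelled Prox1 KO against 517 and 1591 in the controls. All 10 called genes passed in edgeR and 2, Ces2e and Fmo1, in DESeq2 with the block.

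Of 15 tested drug and bile acid transporters 3 fell and 0 rose, all of them ABC exporters. Abcb1a (P-glycoprotein) had a log2 fold change of -0.44, Abcc4 (MRP4) -0.31 and Abcc2 (MRP2), the canalicular exporter of glucuronide and glutathione conjugates, -0.52. edgeR called all 3 and DESeq2 with the block Abcb1a. The hepatocyte uptake carriers Slco1a1 and Slco1b2 were at 0 in all libraries and Slc10a1 (NTCP) at 0 in 3 of 4. Of 8 bile acid synthesis genes outside the P450 family 2 fell. Acox2, the peroxisomal oxidase of bile acid side chains, had 54.0 and 50.8 normalized counts in libraries labelled Prox1 KO against 104 and 142 in the controls, a log2 fold change of -1.19 (limma adjusted p = 0.00152), and Ch25h, the cholesterol 25-hydroxylase, -0.36. Both passed in edgeR and neither in DESeq2 with the block.

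**Figure D5:**
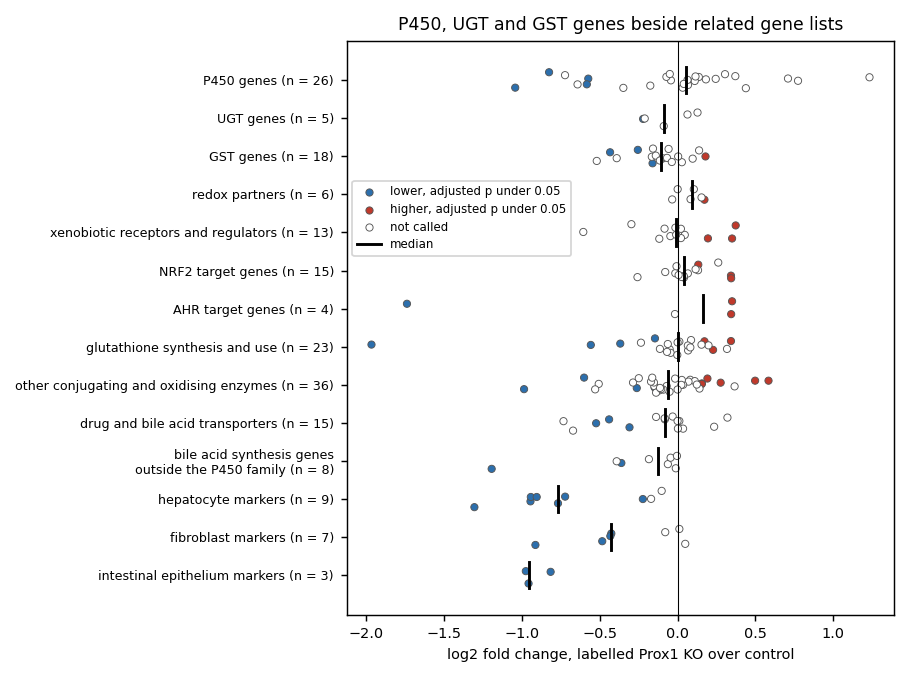
Log2 fold change (libraries labelled Prox1 KO over control) of the tested P450, UGT and GST genes and of genes in 8 related pathway lists and 3 marker lists, with the median as a bar and genes with an adjusted p under 0.05 in colour. The medians of the enzyme families and pathway lists lie between -0.12 and 0.16, and those of the hepatocyte, fibroblast and intestinal epithelium markers at -0.77, -0.43 and -0.96.

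Several marker lists moved with the groups. Sums are over whole lists, genes below the limit included. Of 7 fibroblast markers 4 were lower. The summed level of all 7 was 680358 and 873625 normalized counts in libraries labelled Prox1 KO against 763700 and 956133 in the controls. Col1a1, Col1a2 and Col3a1 held most of this sum, and of these only Col3a1 was called (log2 fold change -0.43). Col1a1, Col1a2 and Thy1 were not called, with log2 fold changes of 0.05, -0.08 and 0.01. Of 6 tested biliary epithelium markers 2 were lower (sums 86600 and 111682 against 89928 and 127949), and of 3 tested intestinal epithelium markers all 3 were lower (sums 1789 and 1974 against 3137 and 3791), although Cdx2, which defines intestinal epithelium, was at 0 in all libraries. The endothelial and muscle lists each had 1 gene higher and 0 lower among 1 and 2 tested genes, with sums of 780 to 960 against 516 to 577 for endothelium and of 1670 to 1683 against 1228 to 1396 for muscle. Kdr held most of the endothelial sum, whereas Pecam1, Cdh5 and Tie1 had means of 5.92, 6.01 and 1.28. Des held most of the muscle sum, and Spp1, which was not called, most of the biliary sum. Of 4 tested steroidogenic cell markers 1 was higher, and of 3 tested adipocyte and 3 tested macrophage markers 0 passed in either direction. All of these marker calls passed in edgeR, and DESeq2 with the block kept 2 of the 4 fibroblast, both biliary, all 3 intestinal and the 1 endothelial call, and neither the muscle nor the steroidogenic one. Adgre1, which defines macrophages, was at 0 in all libraries. The part of these cell types in the differences of the P450, UGT and GST genes was not tested.

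Replicate number moved with the levels of these genes as well. The ratio of replicate 2 to replicate 1 had the same sign in both groups for 35 of the 49 genes, 22 of them higher and 13 lower in replicate 2. The share over all tested genes was not counted. Replicate differences of the groups correlated at 0.407 across the 49 genes and at 0.402 across all tested genes, so the 49 were like the rest. For Cyp2f2, replicate 2 exceeded replicate 1 by 1.36 on the log2 scale where Prox1 KO was labelled and by 0.75 in the controls, more than the difference between the groups.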

How the data were processed

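RNA was sequenced from 4 libraries at day 14, 2 per group, with groups and replicate numbers from the labels. Per the authors, paired reads (100 bases) were aligned with STAR to mm10. They deposited a signal per gene, namely read counts scaled by the DESeq2 size factor of the library. The counting tool is not given in the sources used here. A deposited table of the authors' own DESeq2 comparison, which holds shrunken fold changes and their p-values, raw and adjusted, was not used. Size factors (0.939 to 1.09) were read from the spacing of values, of which 100% were whole multiples (tolerance 0.001). Reads carry no molecular identifiers, and amplification adds to the counting error.

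The 15809 genes with a mean of at least 10 were tested, two-sided, on log2(normalized counts + 1) with limma 3.58.1 (R 4.3.3), with an intensity trend, the replicate number as a block, and Benjamini-Hochberg adjustment over all of them at 0.05. This scale understates changes of low genes. The block follows the study's covariate, the primary MEF line, and deviations of same-numbered libraries correlated at 0.402 across genes. Whether the numbers stand for lines is not stated. Same-group libraries differed beyond sampling noise in 34.3% and 35.4% of genes, so none was a duplicate. An exact permutation test of 2 against 2 cannot go below 0.333.

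The gene lists were written and the enzyme genes chosen with earlier results of these data known. Named were called enzyme genes with the same direction in both pairs, the 3 highest per class, 3 on either side of the limit, Prox1, and up to 4 called genes per pathway list with the smallest adjusted p. The remaining enzyme genes, Por, the liver enzymes, receptors and transporters with few or no reads, Ahr, Rxra and named markers were added after their values were seen. Coordinates and windows of 100 bases shared with other genes come from GENCODE vM21 (55137 of 55397 identifiers matched). Scripts were tested on simulated data. The alternatives were no replicate block, edgeR 4.0.16 and DESeq2 1.42.0 on recovered reads, pseudocounts of 0.1 and 10, other filters, quantile normalization, a GC and length correction, and each replicate left out.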

Additional observations from a re-analysis of the deposited data

How the results depend on the processing

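Of 9 called P450, UGT and GST genes (1 higher, 8 lower) and 1798 genes in all with limma and the replicate block, 0 (0 higher, 0 lower) and 0 remained without the replicate block, where 13 of the 49 and 1783 of all genes had an unadjusted p under 0.05. With the block, DESeq2 called 3 (2 lower; Cyp2s1, Cyp7b1 and Gsto1) and 483 in all, and DESeq2 without it 1 (0 higher, 1 lower; Cyp2s1) and 160 in all, of which 33.8% were higher against 44.7% with limma. edgeR called 2 higher (Cyp2f2 added), the test of all genes above 0 called 11, 2 higher and 9 lower (Cyp2f2 and Gsta1 added), and the GC and length correction with the block called 2 higher (Cyp4f17 added). All 9 were among the calls of each of these 3. With quantile normalization 5 were lower. The signs of Ugt2b34 and Gstt2, neither of them called, turned to 0.00668 and 0.0633 there. The cause of these differences was not tested. The median log2 fold change of the 49 genes ranged from -0.09 to 0.01 with 1 replicate left out, which leaves 1 pair and no test. All 9 called genes had the same direction in both pairs. Pseudocounts of 0.1 and 10 and a minimum mean of 50 left the 9 calls in place. Depth limits the genes with few reads, whose intervals are the widest.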
